A study of Homo sapiens with 6 samples.

Results

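Polycomb repressive complex 2 (PRC2) is the enzyme complex that methylates histone H3 at lysine 27 (H3K27). The rows of the deposited gene count table named for a core or accessory PRC2 subunit were 10 of 48183 gene names, and each of them was listed under 1 gene identifier. They are the catalytic subunits EZH1 and EZH2, the other core subunits EED, SUZ12, RBBP4 and RBBP7, the PRC2.1 accessory subunits MTF2 and PHF19, and the PRC2.2 accessory subunits JARID2 and AEBP2. Their transcripts were measured by bulk RNA-seq of polyadenylated RNA in 6 libraries of a human embryonic stem cell line, labelled H1, in the naive state (4 libraries), which resembles the pre-implantation epiblast, or the primed state (2 libraries), which resembles the later epiblast. The study's text names the line H9.

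All 6 libraries carried EOS-GFP, a piggyBac reporter driven by the distal enhancer of Oct4. The primed EOS library came from these cells untreated. The primed CA-p38 library came from the same cells with a doxycycline-inducible, constitutively active p38 (CA-p38), also with no inducer of conversion. According to the study's methods, CA-p38 was a piggyBac transgene, and doxycycline (DOX) induced the mCherry by which its carriers were sorted. This line, unlike EOS, was thus exposed to DOX when it was made. Primed cells grew on Matrigel in StemFit AK02N. The naive libraries were made from EOS cells converted with AICAR, an activator of the energy-sensing kinase AMPK (AICAR 1 and AICAR 2), from EOS cells converted with VPA, a histone deacetylase inhibitor, and from CA-p38 EOS cells converted with DOX. AICAR and DOX were added to PXGL (Ndiff227 with the MEK inhibitor PD0325901, the tankyrase inhibitor XAV939, the protein kinase C inhibitor Go6983 and LIF), whereas VPA was added to Ndiff227 with PD0325901 and LIF. All naive cells were then passaged in PXGL and sorted as CD75+ and SUSD2+. According to the study, AICAR and DOX were removed during this expansion, and the VPA cells too were sequenced after passages that followed induction. The labels give mouse embryonic fibroblast feeders for naive cultures, while the study also describes feeder-free culture of CA-p38 cells and of AICAR-induced cells. State, medium, sorting and any feeders cannot be told apart. VPA and CA-p38 each had 1 library. According to the study, the AICAR libraries were successive passages, yet each counted as a replicate. The p-values thus measure the spread between these libraries and may be too small for independent conversions.

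The libraries held 46823699 to 54277064 counts. All 8 naive markers were higher in naive libraries and all 8 primed markers lower, as in ALPG (2309 ± 223 SD, n = 4, against 0.963 ± 0.639 CPM, n = 2) and SFRP2 (0.340 ± 0.206 against 569.7 ± 133 CPM), where CPM is the count scaled to library size, with factors from the trimmed mean of M values (TMM). Of 8 fibroblast markers, 5 were lower in naive libraries and 3 were not called, and their summed level was 32.3 to 75.3 in naive and 215 to 228 CPM in primed libraries. The fibroblast markers lowest in naive libraries were PDGFRB (log2 fold change -7.40 ± 0.44 SE) and POSTN (-4.87 ± 0.61), whereas COL3A1, DCN and LUM did not pass the test. Feeders were mouse cells and reads were aligned to human sequences, so these markers are not a measure of feeder cells. The part of these transcripts in the results below was not tested. The primed EOS library had counts in 43512 identifiers, against 38253 to 39484 in the other 5 libraries.

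PRC2 works as a core of EZH1 or EZH2 with EED, SUZ12 and RBBP4 or RBBP7. EZH2 is the more active methyltransferase and is known for its use in dividing cells, EED reads the mark that the complex writes, SUZ12 holds the complex together, and the RBBP proteins bind histones. Accessory subunits define 2 forms, PRC2.1 with a Polycomb-like protein (PHF1, MTF2 or PHF19), which guides it to CpG islands, and PRC2.2 with JARID2 and AEBP2. In embryonic stem cells PRC2 is known for keeping genes of later development silent.

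Most PRC2 subunits were lower in the naive state, but SUZ12 and AEBP2 were higher. By the quasi-likelihood test of edgeR, with p-values adjusted by Benjamini-Hochberg over 26497 genes (threshold 0.05), 2 of the 10 subunits were higher and 6 lower in naive libraries, and EZH1 and RBBP4 were not called. Over all genes tested, 26% were higher and 27% lower, 53.1% in all. With the AICAR libraries summed, 2 subunits were higher and 6 lower as well. All 10 subunits passed the filter on low counts. Without CA-p38, AICAR 1 or primed EOS, 1 subunit was higher, since SUZ12 was not called. In bulk RNA, fewer expressing cells and less RNA per cell cannot be told apart. The median log2 fold change of the subunits, naive minus primed, was -0.55, beside 0.11 for all genes tested. Of all genes tested, 19.7% had a larger absolute log2 fold change than PHF19, the subunit with the largest. This share was 22.9% for JARID2, 23.0% for RBBP7 and 41.1% for AEBP2. It was 54.6% for EED, 58.6% for EZH2, 73.2% for MTF2 and 75.3% for SUZ12. In 9 of 10 subunits the ranges of the naive and primed libraries did not overlap, which was so for 64.9% of all genes. The 6 lower subunits came from every class of the complex, and each of the higher ones stood beside a lower subunit of its own class.

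**Figure D1:**
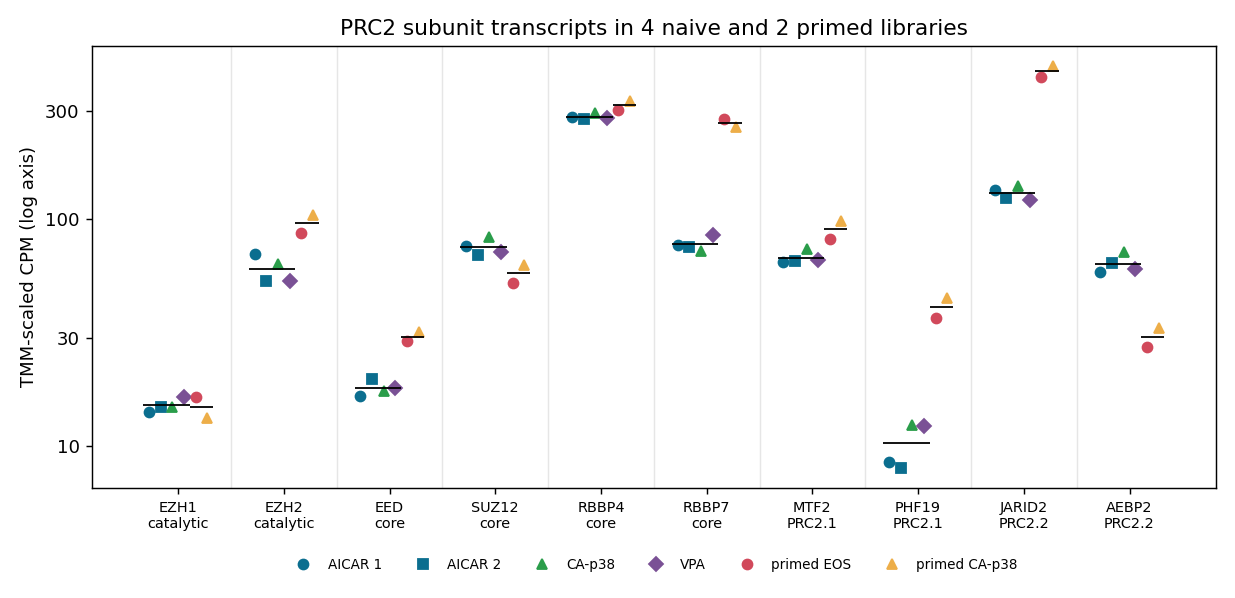
TMM-scaled CPM (log axis) of the 10 PRC2 subunits, 1 symbol per library (legend), with a bar at the mean of the 4 naive and of the 2 primed libraries. JARID2, RBBP7 and PHF19 lie far lower in the naive libraries and AEBP2 higher, and only the EZH1 ranges overlap.

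RefSeq windows (GRCh38.p14) of 300 bases, 250 before the start and 50 after, were found for all 10 genes, and the one nearest the annotated main transcript held 16 (EED) to 48 (PHF19) CpG, against a median of 14 over 35116 windows. The stretches shown run from 110 bases before the start to 10 after it, for a catalytic subunit that was lower in naive libraries (EZH2), for SUZ12, which was higher, and for the lower subunits RBBP7 and JARID2. They lie at chr7:148884282-148884401 (minus strand), chr17:31936897-31937016 (plus), chrX:16870353-16870472 (minus) and chr6:15245959-15246078 (plus). Capitals mark a CCAAT box (CCAAT, or ATTGG on the other strand), the SP motif GGGCGGG (or CCCGCCC) and the E2F motif TTTGGCGC.
EZH2: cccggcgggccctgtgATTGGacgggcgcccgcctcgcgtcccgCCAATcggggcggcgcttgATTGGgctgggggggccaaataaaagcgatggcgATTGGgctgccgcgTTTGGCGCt
SUZ12: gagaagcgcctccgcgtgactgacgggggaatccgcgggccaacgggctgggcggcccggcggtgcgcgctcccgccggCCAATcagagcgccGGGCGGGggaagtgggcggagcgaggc
RBBP7: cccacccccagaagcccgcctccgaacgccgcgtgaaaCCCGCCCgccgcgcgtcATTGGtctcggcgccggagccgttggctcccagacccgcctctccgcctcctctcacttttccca
JARID2: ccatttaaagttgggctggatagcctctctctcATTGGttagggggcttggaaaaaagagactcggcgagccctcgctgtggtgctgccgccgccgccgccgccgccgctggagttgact

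EZH2 held 4 CCAAT boxes in its window and was the 1 subunit with TTTGGCGC, which 0.652% of all windows held. CCAAT occurred in 7 of the 10 windows, 1 of the 2 higher and 5 of the 6 lower subunits, and in 34.6% of all windows. GGGCGGG also occurred in 7, both higher and 3 of the lower subunits, and in 33.1% of all. The other motifs searched on both strands were a second E2F form TTCCCGCC, the ETS motif CCGGAAGT, the KLF motif GGGTGTGG and the POU octamer ATGCAAAT, which were in none of the 10 windows and in 3.16%, 4.14%, 3.28% and 1.77% of all. A letter match is a description, and none of these windows was assayed. The start site on which the AEBP2 window is built lies 1107 bases from the start of its main transcript.

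Of the catalytic pair, EZH2 fell in the naive state and EZH1 did not pass the test. EZH2 (chr7:148807257-148884321, minus strand, GRCh38, GENCODE 44, as for all genes here) measured 53.0 in VPA, 63.5 in CA-p38, 69.9 in AICAR 1 and 53.1 CPM in AICAR 2, against 86.8 CPM in primed EOS and 104 in its CA-p38 counterpart. Every naive library lay below both primed libraries, and the naive libraries spanned 1.32-fold, with the AICAR libraries close to the 2 ends of that range. The log2 fold change was -0.68 ± 0.14 SE (adjusted p = 0.000991, edgeR), or 1.60-fold lower. EZH1 (chr17:42700275-42745049, minus strand), the less active paralog, measured 16.4, 14.8, 14.2 and 14.8 CPM in the same order of naive libraries, against 16.4 and 13.3 CPM. These ranges overlapped, and the difference of 0.02 on the log2 scale (95% interval -0.32 to 0.37, adjusted p = 0.909, edgeR) changed sign with the scaling, with the parental line as a block, and without VPA or primed CA-p38.

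The core subunits that hold the catalytic subunit moved in opposite directions. EED (chr11:86201212-86278813, plus strand), the reader of methylated H3K27, measured 18.0, 17.5, 16.6 and 19.7 CPM in VPA, CA-p38, AICAR 1 and AICAR 2, and 28.9 and 31.6 CPM in the EOS and CA-p38 primed libraries. The groups were apart, and EED fell by 0.75 ± 0.14 on the log2 scale (adjusted p = 0.000439, edgeR), or 1.69-fold. SUZ12 (chr17:31937007-32001038, plus strand), the scaffold, measured 71.7, 83.1, 76.2 and 69.0 CPM against 52.4 and 62.7 CPM. All 4 naive libraries lay above both primed ones, the reverse of EED, by 0.38 ± 0.12 on the log2 scale (adjusted p = 0.0190, edgeR), or 1.30-fold. This was the least stable call among the higher subunits. Without CA-p38, AICAR 1 or primed EOS its adjusted p was 0.0616, 0.0508 and 0.217, with log2 fold changes of 0.31, 0.36 and 0.25. The named copy SUZ12P1 held 1323, 1194, 1533 and 1175 counts in naive and 846 and 658 counts in primed libraries, so reads split between the copies are uncertain, and with copies added the SUZ12 change was 0.46 (adjusted p = 0.00322, edgeR).

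The paired histone-binding subunits RBBP4 and RBBP7, which PRC2 shares with deacetylase and chromatin assembly complexes, differed from each other. RBBP7 (chrX:16839283-16870362, minus strand) measured 84.8 in VPA, 71.8 in CA-p38, 76.9 in AICAR 1 and 75.3 CPM in AICAR 2, against 276 CPM in primed EOS and 255 in its CA-p38 counterpart. The wide gap between the groups gave a log2 fold change of -1.78 ± 0.10 (adjusted p = 1.09e-08, edgeR), or 3.43-fold lower. RBBP4 (chr1:32651142-32686211, plus strand) measured 278, 291, 280.0 and 275 CPM against 303 and 331 CPM. The ranges were apart, but the difference of -0.17 (95% interval -0.37 to 0.02) did not pass the test (adjusted p = 0.125, edgeR). Exons of RBBP4 overlap those of SYNC on the opposite strand over 2160 bases and exons of RBBP7 those of TXLNG over 179 bases, and whether counting used strand is not given in the sources used here. TXLNG held 4528 to 5318 counts in naive and 6356 to 7509 in primed libraries, so a share of its reads in RBBP7 cannot be told apart. SYNC went the opposite way to RBBP4, with 1491 to 1872 counts in naive and 1203 and 1233 in primed libraries. A share of SYNC reads in RBBP4 cannot be told apart either.

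The PRC2.1 subunits both fell. MTF2 (chr1:93079235-93139079, plus strand), a Polycomb-like protein, measured 65.9, 74.0, 64.7 and 65.1 CPM in VPA, CA-p38, AICAR 1 and AICAR 2, and 81.9 and 97.9 CPM in the EOS and CA-p38 primed libraries. CA-p38 stood above the other naive libraries yet below both primed ones, and the log2 fold change was -0.41 ± 0.11 (adjusted p = 0.00816, edgeR). Without primed CA-p38 it was -0.27 (adjusted p = 0.146). PHF19 (chr9:120855651-120894896, minus strand), another Polycomb-like protein, measured 12.2, 12.3, 8.48 and 7.99 CPM against 36.7 and 44.7 CPM. It had the largest log2 fold change of the 10, -1.99 ± 0.19 (adjusted p = 1.83e-06, edgeR), or 3.97-fold lower. Both AICAR libraries lay below VPA and CA-p38, and its naive range of 1.54-fold was the widest of the 10 subunits.

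The PRC2.2 subunits went opposite ways. JARID2 (chr6:15246069-15522042, plus strand), which binds nucleosomes and stimulates the complex, measured 121 in VPA, 139.5 in CA-p38, 134 in AICAR 1 and 124 CPM in AICAR 2, against 424 CPM in primed EOS and 471 in its CA-p38 counterpart. Every naive library lay far below both primed ones, and the log2 fold change was -1.79 ± 0.10 (adjusted p = 7.92e-09, edgeR), or 3.45-fold lower. AEBP2 (chr12:19404045-19720801, plus strand), a zinc finger protein that binds the complex with JARID2, measured 60.2, 71.2, 58.5 and 63.9 CPM against 27.2 and 33.2 CPM. All naive libraries lay above both primed libraries, by 1.07 ± 0.14 on the log2 scale (adjusted p = 2.10e-05, edgeR).

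**Figure D2:**
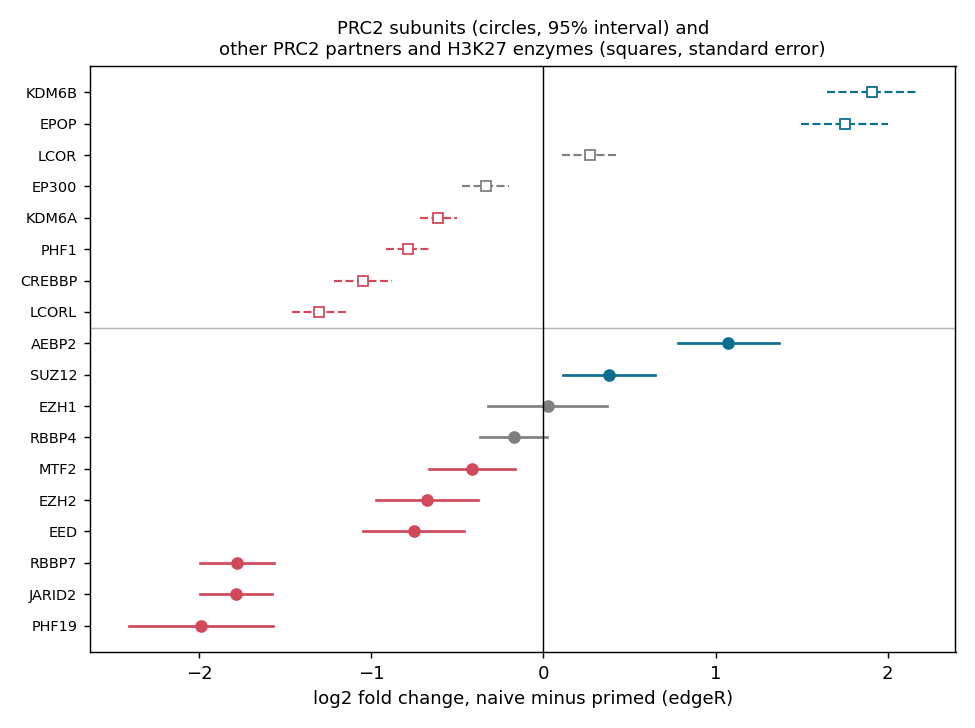
Log2 fold change, naive minus primed, of the 10 PRC2 subunits (circles with 95% intervals) and of other PRC2 partners and H3K27 enzymes (open squares with standard errors), in blue where higher, red where lower and grey where not called. RBBP7, JARID2 and PHF19 lie between -1.78 and -1.99, whereas AEBP2 lies at 1.07.

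Ratios within a library do not depend on scaling between libraries and set these differences side by side. The ratio of JARID2 to AEBP2 counts was 2.02 in VPA, 1.96 in CA-p38, 2.29 in AICAR 1 and 1.93 in AICAR 2, against 15.6 in primed EOS and 14.2 in its CA-p38 counterpart. It was thus 7.27-fold lower in naive libraries, and the naive values lay close together. RBBP4 over RBBP7 was 3.28, 4.06, 3.64 and 3.65 in naive and 1.10 and 1.30 in primed libraries, 3.05-fold higher in the naive state. MTF2 over PHF19 was 5.39, 6.00, 7.62 and 8.13 against 2.23 and 2.19, and EZH2 over EZH1 was 3.23, 4.28, 4.93 and 3.58 against 5.30 and 7.88. The summed PRC2.1 counts (MTF2 and PHF19) over the summed PRC2.2 counts (JARID2 and AEBP2) were 0.430, 0.410, 0.380 and 0.390 against 0.263 and 0.283. JARID2 held most of the PRC2.2 counts in the primed libraries (20957 and 23054, against 1345 and 1622 for AEBP2). These sums are not scaled to length and leave out PHF1 and EPOP, described below, so they do not measure the amounts of the 2 forms. None of the 5 ratios overlapped between the states. A two-sided exact permutation test of 4 against 2 libraries gave p = 0.0667 for each, also after adjustment over the 5, which is the smallest value that its 15 regroupings allow, so none could reach 0.05.

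**Figure D3:**
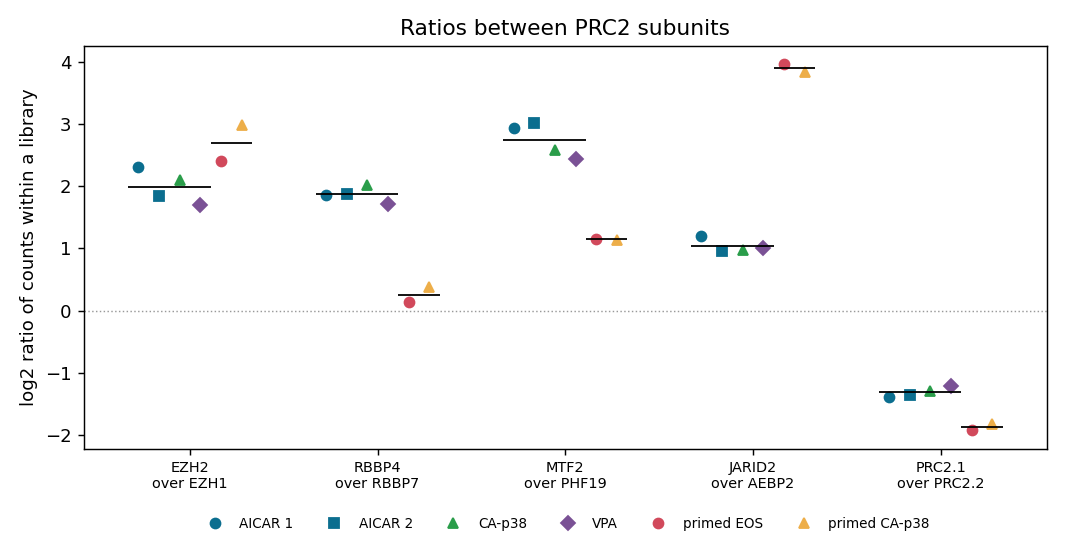
Log2 ratio of counts between PRC2 subunits within each library, with a bar at the mean of each state. The ratio of JARID2 to AEBP2 sits near 1.03 in the naive and 3.90 in the primed libraries on the log2 scale.

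Levels can be compared between subunits only per length, here as mean CPM per kilobase of the main (MANE Select) transcript. In naive libraries the order from the highest was RBBP4 (35.7), RBBP7 (33.8), EZH2 (22.6), JARID2 (21.6), SUZ12 (16.7), MTF2 (16.5), AEBP2 (10.9), EED (8.60), EZH1 (3.25) and PHF19 (2.47 CPM per kilobase). RBBP4 and RBBP7, EZH2 and JARID2, and SUZ12 and MTF2 were neighbours whose libraries overlapped. In primed libraries it was RBBP7 (116), JARID2 (74.5), RBBP4 (40.2), EZH2 (36.0), MTF2 (22.1), EED (14.5), SUZ12 (12.8), PHF19 (9.81), AEBP2 (5.18) and EZH1 (3.20 CPM per kilobase), with overlaps between RBBP4 and EZH2 and between EED and SUZ12. JARID2 thus made up 66.5% ± 1.7 (SD, n = 4) of the JARID2 and AEBP2 level per kilobase in naive and 93.5% ± 0.39 (n = 2) in primed libraries. RBBP7 made up 48.7% ± 2.2 against 74.3% ± 2.3 of the RBBP4 and RBBP7 level, and PHF19 12.9% ± 2.2 against 30.8% ± 0.29 of the MTF2 and PHF19 level. EZH1 made up 12.8% ± 2.1 against 8.26% ± 2.1 of the level of the catalytic pair, and AICAR 1 (10.4%) lay close to primed EOS (9.75%). Reads were counted over all transcripts of a gene, and the order between subunits depends on the length used. With the union of all annotated exons of a gene, a choice made after seeing the data, JARID2 headed the primed order (71.7), before RBBP7 (36.1), RBBP4 (33.5), MTF2 (15.2) and EZH2 (8.88 CPM per kilobase). In naive libraries it gave RBBP4 (29.7), JARID2 (20.8), SUZ12 (11.4), MTF2 (11.4) and RBBP7 (10.5), with EZH2 at 5.56 CPM per kilobase. The share of RBBP7 was then 26.2% ± 1.7 in naive and 51.9% ± 3.0 in primed libraries, and that of EZH1 28.2% ± 3.8 and 19.4% ± 4.4. The shares of JARID2 (68.9% and 94.2%) and PHF19 (11.9% and 28.8%) moved little, and all 4 shares kept the direction of their difference between the states.

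**Figure D4:**
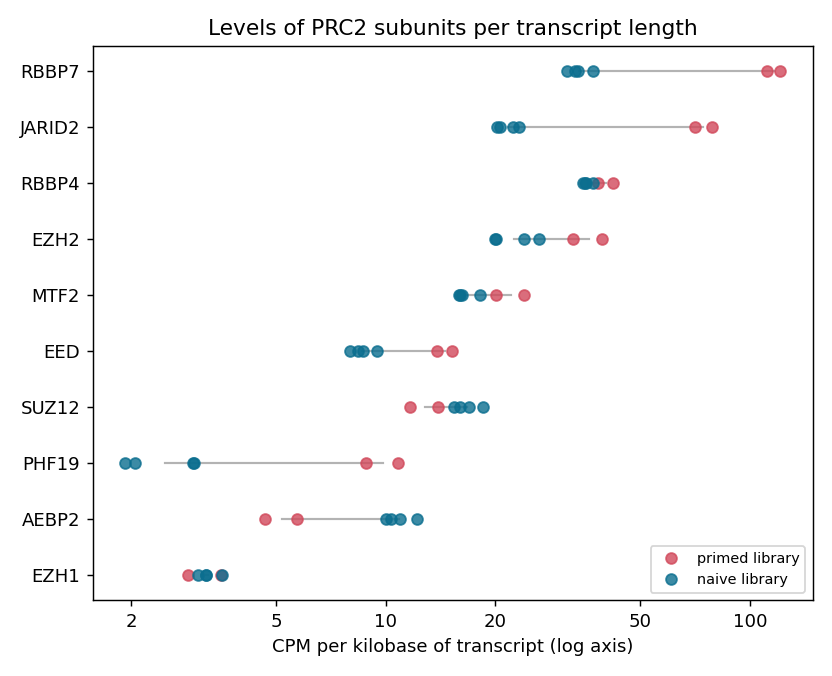
Level of each PRC2 subunit in CPM per kilobase of its main transcript (log axis), 1 point per library, with a grey line between the mean of the naive and of the primed libraries. With this length RBBP7 and JARID2 head the primed order at 116 and 74.5 CPM per kilobase (36.1 and 71.7 with the union of exons), and EZH1 keeps nearly the same level at 3.25 and 3.20.

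Each naive library was also set against the primed library of its own parental line, which is 1 library against 1 with no replicate check. AICAR 1, AICAR 2 and VPA share primed EOS. JARID2 was at 0.287 of its parental level in VPA, 0.296 in CA-p38, 0.317 in AICAR 1 and 0.292 in AICAR 2. AEBP2 was at 2.21, 2.15, 2.15 and 2.35 of it in the same order, RBBP7 at 0.308, 0.282, 0.279 and 0.273, and SUZ12 at 1.37, 1.33, 1.45 and 1.32. PHF19 and EZH2 had the widest spread of the 10 subunits over the conversions. PHF19 was at 0.334 in VPA and 0.276 in CA-p38 but at 0.232 in AICAR 1 and 0.218 in AICAR 2, and EZH2 was at 0.611, 0.608 and 0.612 in VPA, CA-p38 and AICAR 2 but at 0.805 in AICAR 1. The other folds were 0.552 to 0.682 for EED, 0.756 to 0.805 for MTF2, 0.879 to 0.926 for RBBP4 and 0.865 to 1.12 for EZH1. The Clopper-Pearson 95% intervals of EZH2, which cover counting error only, were 0.770 to 0.841 in AICAR 1 and 0.583 to 0.643 in AICAR 2, so these libraries of 1 treatment differed beyond counting error. In an edgeR fit with a term for state by parental line, called for 1 of 26497 genes (0.00377%), none of the 10 subunits was called (0 also at an unadjusted p under 0.05). The difference between the lines was largest for EZH1 (0.27 on the log2 scale, unadjusted p = 0.455) and EED (-0.18), which does not show that the lines respond alike.

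The other known partners of PRC2 also went both ways. Of 5 listed, 4 passed the filter, and 1 was higher, 2 lower and 1 not called. Over all genes tested, 26% were higher and 27% lower. EPOP, a PRC2.1 subunit that links the complex to elongin, measured 9.86, 6.87, 8.50 and 7.19 CPM in VPA, CA-p38, AICAR 1 and AICAR 2 against 2.55 and 2.27 CPM, a log2 fold change of 1.75 ± 0.25 (adjusted p = 6.68e-05, edgeR). PHF1, the third Polycomb-like protein, measured 18.2 to 20.7 in naive and 32.5 to 33.9 CPM in primed libraries (-0.78 ± 0.13). With MTF2 and PHF19, all 3 Polycomb-like proteins were thus lower in the naive state. LCORL, a relative of LCOR, was lower too (-1.30 ± 0.16), and LCOR, whose locus encodes the PRC2.1 subunit PALI1, did not pass the test (0.27 ± 0.16, adjusted p = 0.175, edgeR). EZHIP, an inhibitor of PRC2, was below the filter with 0 to 0.162 CPM in every library.

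The enzymes that act on the same residue were split as well. KDM6B, a demethylase of H3K27, measured 92.3, 105, 98.2 and 101 CPM in VPA, CA-p38, AICAR 1 and AICAR 2 against 37.2 CPM in primed EOS and 15.7 in its CA-p38 counterpart. It was higher in every naive library by 1.91 ± 0.26 on the log2 scale (adjusted p = 3.99e-05, edgeR). KDM6B ranged from 1.42 to 2.65 over the 16 alternatives (2.65 without primed EOS), and its primed libraries differed widely. Its X-linked relative KDM6A was lower, with 49.1 to 53.2 in naive and 73.1 to 81.2 CPM in primed libraries (-0.61 ± 0.11). The acetyltransferase CREBBP, which places acetyl groups on the same lysine, was lower (-1.05 ± 0.17), and its relative EP300 did not pass the test (-0.33 ± 0.14, adjusted p = 0.0541, edgeR). The log2 fold change of EP300 was negative in all 16 alternatives, from -0.53 to -0.12. EP300 was called lower in 8 of the 16, among them DESeq2 and limma-voom. Its smallest adjusted p was 0.0113 (edgeR, without the filter).

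RBBP4 and RBBP7 also serve the NuRD, SIN3 and CAF-1 complexes. Of 14 other subunits of these, 4 were higher and 10 lower in naive libraries, at a median of -0.58 on the log2 scale. Over all 26497 genes tested, 26% were higher and 27% lower, with a median of 0.11. The highest were MBD3 (1.13 ± 0.11) and MTA3 (0.78 ± 0.11), and the lowest were the NuRD remodeller CHD4 (-1.34 ± 0.10) and MTA1 (-1.07 ± 0.11). Of 17 cell cycle and E2F genes, which include targets of E2F as EZH2 is known to be, 3 were higher and 12 lower, with a median of -0.56 and a summed level of 3070 to 3451 in naive and 4893 to 5507 CPM in primed libraries. Cyclin E1 (CCNE1, 0.98 ± 0.11) and E2F2 (0.61 ± 0.17) were the highest, and topoisomerase TOP2A (-1.51 ± 0.15) and the nucleotide reductase subunit RRM2 (-1.40 ± 0.11) the lowest. The 12 lower cell cycle transcripts fell together with EZH2, EED and the other lower subunits, and their part in those results was not tested.

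Among 12604 genes averaging 5 CPM or more, the profiles most like that of EZH2 over the 6 libraries, by Euclidean distance of centred log2 CPM, were LMNB1 (distance 0.13), SNX13 (0.13) and BBS7 (0.15). LMNB1 encodes lamin B1 of the nuclear envelope. Nearest to EED were FBXW2 (0.06), LDAH (0.09) and SH3GLB1 (0.09), and nearest to SUZ12 were NISCH (0.09), CHUK (0.11) and CAPN5 (0.13). Nearest to EZH1 were EXOSC8 (0.08), KHNYN (0.13) and AL157392 (0.13). FBXW2, chosen by its small distance to EED, measured 43.1, 41.4, 39.0 and 45.9 CPM in the naive and 65.5 and 74.0 CPM in the primed libraries.

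Developmental regulators that PRC2 is known to silence were at low levels in both states and differed in both directions. Of 36 listed, 32 passed the filter, and 20 were higher, 7 lower and 5 not called, with a median log2 fold change of 2.75, or 2.53 with the 5 genes that had at most 3 counts in each primed library set at 3 counts there. The median level was 0.764 in naive and 0.346 CPM in primed libraries, and 2 of the 36 exceeded 5 CPM in naive and 1 in primed libraries. Genes near 0 in the primed libraries could pass the filter only through the naive group. The reverse held for genes near 0 in the naive libraries, so these counts and medians are a description. Over all genes tested, the shares were 26% higher and 27% lower, and the median was 0.11. With at least 10 counts in every library, 9 of the 36 were tested, and 4 were higher and 2 lower. DLX5, a homeobox regulator of bone and neural crest, measured 0.993, 2.55, 3.42 and 3.10 CPM in VPA, CA-p38, AICAR 1 and AICAR 2 and had no count in the primed libraries, at least 41.3-fold higher against a floor of 3 counts per library. CDX2, a regulator of trophectoderm and hindgut, measured 1.18, 2.45, 1.66 and 1.97 CPM and was at least 29.8-fold higher against the same floor. At the other end, the endoderm regulator FOXA2 measured 0.516, 0.416, 0.920 and 1.19 CPM against 5.36 CPM in primed EOS and 21.4 in its CA-p38 counterpart (log2 fold change -4.14 ± 0.49). TBX5, a regulator of heart and limb, was lower as well, with 0.096, 0, 0 and 0.040 against 0.687 and 2.76 CPM. Its naive levels lay near 0, so the size of its log2 fold change (-5.57 ± 0.87) is uncertain. The direction thus differed between regulators of the list, and the primed libraries differed widely for FOXA2 and TBX5.

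**Figure D5:**
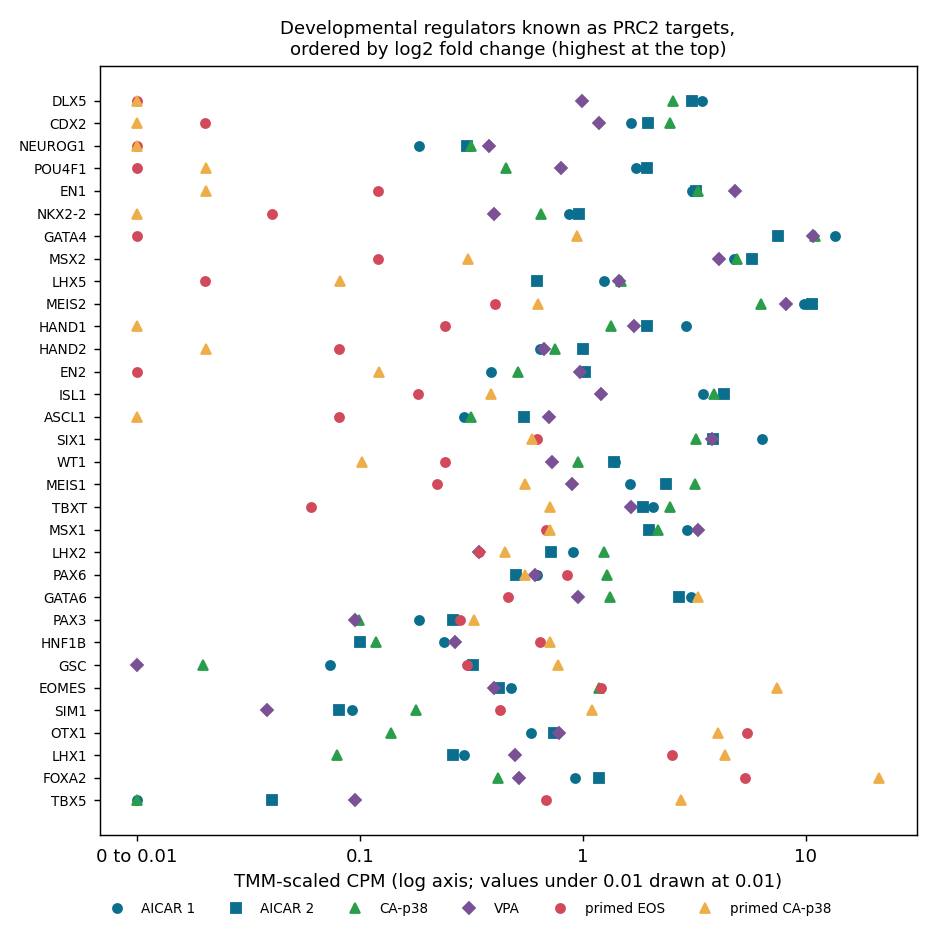
TMM-scaled CPM (log axis, values under 0.01 drawn at 0.01) of the 32 developmental regulators tested, 1 symbol per library, ordered by log2 fold change. Most rows have the naive libraries to the right of the primed ones, mostly at levels under 5 CPM, and the lowest rows, such as FOXA2 and TBX5, have them to the left.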

How the data were processed

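Bulk RNA-seq was analysed in 6 libraries. Per the study's methods, the authors trimmed reads with cutadapt 1.15 through Trim Galore 0.4.4, aligned them with Bowtie2 to Ensembl GRCh38 cDNA and ncRNA sequences and counted reads per gene. The deposited values are raw counts, with no normalization. 26 spike-in sequences and 23 columns of other studies were not used. Identifiers sharing a name were summed (6932 of 48183 names). The states were compared in edgeR 4.0.16 (TMM scaling, filterByExpr by state, quasi-likelihood test, Benjamini-Hochberg adjustment, R 4.3.3), and 14058 of 26497 genes passed 0.05. The fit was also run on simulated data as a check of the code. Those simulated libraries were independent, with less spread and fewer changed genes than here, so the run does not test these results. SE is the log2 fold change over the root of F. Ratios and folds took a prior count of 0.5 and permutation tests were exact. Alternatives were DESeq2 1.42.0, limma-voom 3.58.1, other scalings and filters, and the parental line as a block. Further ones were the AICAR libraries summed, union exon lengths (added after seeing the data) and each library left out. The subunits, lists and motifs were chosen with earlier results of these data known. Named genes were all subunits, partners and H3K27 enzymes, and the 2 highest and 2 lowest called genes of each other list, shortened for markers. Promoters came from RefSeq and positions from GENCODE 44.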

Additional observations from a re-analysis of the deposited data

Results flagged for a closer look

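MTF2 in CA-p38 measured 74.0 CPM and stood apart from VPA, AICAR 1 and AICAR 2, which lay between 64.7 and 65.9 CPM. Its gap to the nearest of them was 0.874 of the naive range, above Dixon's 95% critical value for 4 libraries. It was the single flag among 15 subunit levels and ratios tested, and chance flags about 1 in 20. MTF2 was also higher in the primed library of the CA-p38 line (97.9 CPM) than in primed EOS (81.9 CPM). Relative to the primed library of its own line, MTF2 was at 0.756 in CA-p38, 0.805 in VPA, 0.791 in AICAR 1 and 0.794 in AICAR 2.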

How the results depend on the processing

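The counts of called and of lower subunits stayed within 1.5 times their values in all 16 alternatives. The count of higher subunits ranged from 1 to 2 when each library was left out, since SUZ12 was lost without CA-p38, AICAR 1 or primed EOS. EZH1 changed sign with median-ratio scaling (-0.025 on the log2 scale), DESeq2 (-0.025) and the parental line as a block (-0.0043), and ranged from -0.11 to 0.17 over single libraries left out, below zero without VPA or primed CA-p38. The log2 fold change of MTF2 weakened from -0.41 to -0.27 without primed CA-p38. The causes were not tested. The parental block changed no call of a subunit. No paired analysis by replicate number was possible because the labels give the states no shared replicate numbers. All 5 ratios kept their direction in all alternatives. Over the alternatives RBBP4 ranged from -0.25 to -0.07 and was called in none, and its smallest adjusted p was 0.0716. Levels per kilobase depended on the transcript length, as given beside them.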
